A study of Mus musculus with 10 samples.

Results

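Neuro-2a is a cell line from a mouse neuroblastoma, and 130 of the noncoding RNAs measured in it carry provisional names: 116 whose symbol ends in Rik and 14 whose symbol ends in os. The members were chosen by name and by level. A gene belonged when all its rows in the deposited tables had an NR_ (noncoding) RefSeq identifier, its symbol had one of these endings, and its mean level over the 6 poly(A) RNA libraries was at least 0.5 RPKM (read density along the transcript, corrected for library size). The level is thus not a finding. The difference between the siRNAs was not a criterion, though the members were chosen with earlier results of these data known. 1110038B12Rik and Epb41l4aos were left out by the rule. With the siRNA against Sfpq they rose by 2.32 and 2.01 log2 units in poly(A) RNA, more than any member kept. The row with the highest mean stood for each gene. Of 1172 such symbols (1074 Rik and 98 os), 130 passed, among 11727 genes at this level and 23553 genes with a row.

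A Rik symbol marks a mouse gene known mainly from the RIKEN collection of full-length cDNAs and not yet named for a function. The ending os stands for opposite strand, and such an RNA is transcribed against the gene it is named after, often starting near that gene's own promoter. Long noncoding RNAs are made by RNA polymerase II, many are spliced and polyadenylated like messenger RNA, most are scarce and many stay in the nucleus, where the RNA exosome and its adaptors degrade a part of them. Sfpq is a nuclear protein of the DBHS family that binds RNA and DNA and is a core component of the paraspeckle, a nuclear body built on the long noncoding RNA Neat1.

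All cells were Neuro-2a, whose strain the labels give as C57BL/6+C57BL/6J+CBA, in differentiation medium with 2% serum, and every group was transfected with a Stealth siRNA. The control siRNA targeted luciferase (Luc), which mouse cells lack, and the other targeted Sfpq. There were 3 Luc and 3 Sfpq libraries of poly(A) RNA. A further Luc and a further Sfpq library, 1 each, came from rRNA-depleted RNA, and all were read on the Ion Proton system. Polymerase II chromatin immunoprecipitation is not analysed here. Nothing in the labels ties the replicates to separate cultures, so a p-value here reflects library-to-library spread that could be technical. In such bulk samples fewer cells with an RNA and less of it per cell cannot be told apart.

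Sfpq RNA itself measured 63.5 ± 8.42 RPKM (SD, n = 3) in Luc and 5.07 ± 1.27 in Sfpq libraries, 7.97% of the control. These values are from its row with the highest mean, which has a noncoding identifier. The log2 fold change was -3.54 for that row and -3.47 for the mean of all rows of the gene. All 12 neuroblastoma markers reached 0.5 RPKM, with a summed level of 905 to 1108 RPKM in Luc and 907 to 968 in Sfpq libraries. Summed markers of astrocytes, fibroblasts and leukocytes stayed between 0 and 0.693 RPKM in every library, and those of oligodendrocytes and endothelium between 1.35 and 2.73. Luc replicate 3 stood somewhat apart from the other Luc libraries (Pearson's r across genes of 0.985 and 0.979, against 0.996 between those), and the counts of calls are given with and without it. RPKM holds no read count, so the absolute depth is unknown.

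The label of long noncoding RNA fitted most of the genes but not all. RefSeq classes all 14 os genes and 105 of the 116 Rik genes as long noncoding RNA, 10 Rik genes as transcribed pseudogenes and 1, 4930451G09Rik, as miscellaneous RNA. The pseudogenes included 3 of the 6 most abundant Rik genes, and a pseudogene can share reads with the gene it was copied from, so their levels are uncertain.

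Start regions are printed for the 8 genes on which the results turn, the 4 largest changes each way with an entry in the RefSeq promoter table: falls of 2210408F21Rik, 1110002L01Rik, 1700001K23Rik and Mkln1os, and rises of 2810410L24Rik, 2410006H16Rik, 8430429K09Rik and Lhx1os. The table holds 3 starts for 8430429K09Rik, of which the first is shown. Each runs 5′ to 3′ along the gene's strand, from 250 bases before to 50 bases after the start annotated by RefSeq in GRCm38.p6, so the last 50 bases begin at the annotated start. Capitals mark short promoter motifs, read on either strand: the CCAAT box, spelled by its name; the GC box, which is GGGCGG; the TATA box, searched for as TATAAA; the cAMP response element, TGACGTCA; and the E-box, spelled CACGTG. None of these spellings contains another.
2210408F21Rik (chr6:31220101-31220400, plus strand): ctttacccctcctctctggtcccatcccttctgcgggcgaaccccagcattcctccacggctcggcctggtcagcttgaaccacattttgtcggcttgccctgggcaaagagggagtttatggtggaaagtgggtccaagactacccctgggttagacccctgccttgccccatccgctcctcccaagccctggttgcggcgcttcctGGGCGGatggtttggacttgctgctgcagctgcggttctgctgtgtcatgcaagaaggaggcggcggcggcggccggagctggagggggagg
1110002L01Rik (chr12:3426698-3426997, minus strand): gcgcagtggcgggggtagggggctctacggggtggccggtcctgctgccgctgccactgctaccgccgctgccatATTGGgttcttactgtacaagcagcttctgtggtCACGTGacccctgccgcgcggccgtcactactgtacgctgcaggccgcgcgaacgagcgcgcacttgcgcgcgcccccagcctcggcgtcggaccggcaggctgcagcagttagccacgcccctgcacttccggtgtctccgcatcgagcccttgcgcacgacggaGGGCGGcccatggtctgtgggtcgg
1700001K23Rik (chr19:53255156-53255455, minus strand): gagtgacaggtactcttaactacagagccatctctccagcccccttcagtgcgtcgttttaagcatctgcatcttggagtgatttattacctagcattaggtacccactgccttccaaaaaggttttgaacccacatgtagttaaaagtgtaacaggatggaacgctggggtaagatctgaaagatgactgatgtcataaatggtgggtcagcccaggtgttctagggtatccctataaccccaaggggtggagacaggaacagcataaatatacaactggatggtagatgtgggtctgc
Mkln1os (chr6:31398724-31399023, minus strand): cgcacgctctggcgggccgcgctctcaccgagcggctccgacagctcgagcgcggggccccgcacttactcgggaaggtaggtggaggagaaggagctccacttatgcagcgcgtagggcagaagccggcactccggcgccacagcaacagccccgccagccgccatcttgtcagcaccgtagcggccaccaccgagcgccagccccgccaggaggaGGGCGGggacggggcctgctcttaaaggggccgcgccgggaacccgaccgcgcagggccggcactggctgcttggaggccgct
2810410L24Rik (chr11:120189807-120190106, minus strand): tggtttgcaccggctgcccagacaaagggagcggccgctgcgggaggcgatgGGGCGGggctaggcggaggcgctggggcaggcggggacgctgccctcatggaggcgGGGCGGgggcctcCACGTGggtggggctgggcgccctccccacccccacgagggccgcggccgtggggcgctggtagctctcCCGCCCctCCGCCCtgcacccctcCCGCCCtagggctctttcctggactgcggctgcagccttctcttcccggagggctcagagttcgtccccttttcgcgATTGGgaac
2410006H16Rik (chr11:62602627-62602926, plus strand): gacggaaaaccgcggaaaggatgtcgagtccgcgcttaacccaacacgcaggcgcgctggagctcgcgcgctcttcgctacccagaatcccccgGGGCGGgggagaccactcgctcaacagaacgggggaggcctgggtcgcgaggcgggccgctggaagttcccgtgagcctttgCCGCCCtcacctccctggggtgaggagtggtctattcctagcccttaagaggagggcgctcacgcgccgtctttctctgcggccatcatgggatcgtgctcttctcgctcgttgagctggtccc
8430429K09Rik (chr11:3452187-3452486, plus strand): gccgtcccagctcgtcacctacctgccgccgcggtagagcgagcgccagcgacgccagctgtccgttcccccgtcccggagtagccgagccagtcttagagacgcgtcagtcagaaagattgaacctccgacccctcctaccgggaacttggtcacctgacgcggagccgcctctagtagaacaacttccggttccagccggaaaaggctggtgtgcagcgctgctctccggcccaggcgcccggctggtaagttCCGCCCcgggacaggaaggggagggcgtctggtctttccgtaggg
Lhx1os (chr11:84525410-84525709, plus strand): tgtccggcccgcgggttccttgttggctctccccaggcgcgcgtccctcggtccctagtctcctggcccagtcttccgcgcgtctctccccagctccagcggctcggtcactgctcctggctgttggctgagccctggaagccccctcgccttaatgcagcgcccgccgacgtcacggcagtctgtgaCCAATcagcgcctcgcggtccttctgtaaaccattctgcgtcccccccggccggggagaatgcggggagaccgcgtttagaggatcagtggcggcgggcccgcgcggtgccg
GC content ran from 46.3% in 1700001K23Rik, whose window holds none of the motifs, to 74% in 2810410L24Rik, whose window holds 5 GC boxes. TATAAA was in none of the 8. Across the 104 members with an entry, the median GC content was 61.3%, the same as for the 9246 tested genes with an entry, and above the 52.7% of all 27025 genes in the table, expressed or not. The GC box was found in 54.8% of the members' windows, 66.5% of the tested genes' and 35.9% of all. CCAAT stood in 44.2% of the members' and 40.1% of the tested genes' windows, TATAAA in 5.77% and 6.62%, the E-box in 12.5% and 10.5%, and the cAMP response element in 4.81% and 3.58%. These are matches of letters and not measured binding.

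The members were scarce RNAs with a few exceptions. The median mean level was 1.29 RPKM for Rik and 1.5 RPKM for os genes, against 9.36 RPKM for all genes tested. Of the Rik genes, 44 lay between 0.5 and 1 RPKM, 54 between 1 and 5, 15 between 5 and 50 and 3 above 50, with the highest at 489 RPKM. Among the os genes 5 lay between 0.5 and 1, 8 between 1 and 5 and 1, Rab26os, above 5 RPKM. At the threshold, D330041H03Rik (0.486 RPKM) and E030011O05Rik (0.49) were just outside, and A230072C01Rik (0.502) and Rbm3os (0.503) just inside. D330041H03Rik ranged from 0.278 to 0.349 RPKM in Luc and from 0.487 to 0.835 in Sfpq libraries, E030011O05Rik from 0.38 to 0.679 and from 0.302 to 0.603.

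Knockdown of Sfpq moved these RNAs both ways, and more Rik RNAs rose than fell. In limma's test over all 11727 genes, on log2(RPKM + 0.5) and at a Benjamini-Hochberg adjusted p under 0.05, 31 of 116 Rik RNAs rose and 13 fell, while 72 did not pass. Of all genes tested, 21.4% rose and 18.6% fell, so the Rik share was 26.7% higher and 11.2% lower. Among os RNAs 5 of 14 rose, 3 fell and 6 did not pass. The median log2 fold change was 0.16 for Rik, 0.34 for os, 0.16 for the other 278 genes with NR_ rows only and 0.05 for all genes. Of those other 278 noncoding genes 71 rose and 22 fell. The groups did not overlap for 37 Rik RNAs that were higher and 14 that were lower, beside 28.2% and 24.7% of all genes. For os RNAs these numbers were 6 and 4.

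Large changes were fewer. Changes of at least 1 log2 unit on the log2(RPKM + 0.5) scale that passed the test numbered 5 higher and 4 lower among Rik RNAs and 1 each way among os RNAs, beside 2.3% higher and 4.74% lower of all genes. The added 0.5 RPKM damps the change of low genes: by the ratio of mean RPKM itself, 13 called Rik RNAs were at least 2-fold higher and 8 at least 2-fold lower, and 1 os RNA each way, beside 4.14% and 6.11% of all genes. By level, 8 of the 18 Rik RNAs at 5 RPKM or more rose and 4 fell, against 19.7% and 18.7% of all genes at that level. In the lowest class, 0.5 to 1 RPKM, 9 of 44 rose and 4 fell, against 24% and 16.4%.

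Some members were present only through the group in which they were high. The Luc mean was under 0.5 RPKM for 15 Rik RNAs, of which 9 were called higher, and the Sfpq mean for 8, of which 5 were called lower. With both group means at or above 0.5 RPKM, 93 Rik RNAs were left, 22 higher and 8 lower, and 11 os RNAs, 5 higher and 2 lower. Leaving out Sfpq replicate 3 brought the Rik RNAs called higher to 20, while the share of all genes called higher went from 21.4% to 14.2%. The os RNAs called higher numbered 3 without Luc replicate 1, 3 without Sfpq replicate 1 and 2 without Sfpq replicate 3. In these fits 14.9%, 18.2% and 14.2% of all genes were called higher. Without Luc replicate 3, 35 Rik RNAs were higher and 16 lower, and 6 os RNAs were higher and 2 lower, beside 30.7% higher and 22.7% lower of all genes. Fitting all 23553 genes without a minimum level left 13 Rik RNAs called higher and 9 lower, and 3 os RNAs higher and 2 lower, beside 7.82% and 7.62% of all genes.

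**Figure D1:**
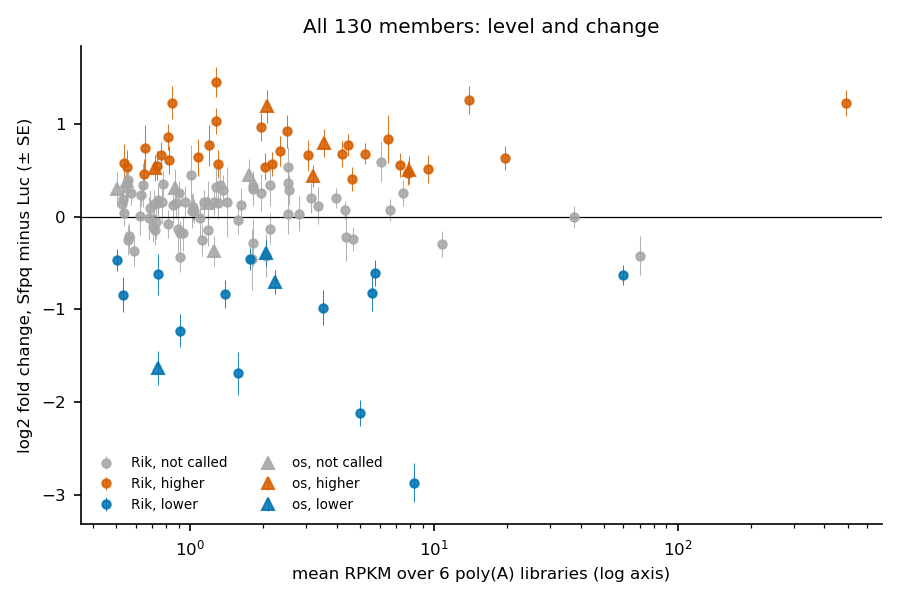
Level and change of the 130 RNAs in poly(A) RNA. The x axis is the mean RPKM over the 6 libraries on a log axis, the y axis the log2 fold change of Sfpq over Luc on log2(RPKM + 0.5), and bars are standard errors; circles are Rik and triangles os RNAs, orange called higher, blue called lower and grey not called. Most points lie within 1 log2 unit of 0, and the lowest belongs to 2210408F21Rik at -2.87.

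On the log2(RPKM + 0.5) scale the deepest fall was that of 2210408F21Rik (NR_040258), a long noncoding RNA with no assigned function. Its level was 15.5, 14.4 and 15.0 RPKM in the Luc libraries and 0.954, 1.82 and 2.28 RPKM in the Sfpq libraries. The groups were far apart and the Sfpq mean was 11.2% of the Luc mean, a log2 fold change of -2.87 ± 0.21 (SE, adjusted p = 1.26e-05, limma). 1110002L01Rik (NR_030694) measured 7.75, 7.63 and 9.84 RPKM in Luc and 1.33, 1.65 and 1.63 RPKM in Sfpq libraries. Every Sfpq library lay below every Luc library, with a log2 fold change of -2.12 ± 0.14 (adjusted p = 6.01e-06). It overlaps Kif3c, a kinesin motor gene, and starts head to head with Asxl2, a chromatin regulator, and Kif3c was not called (log2 fold change -0.04, adjusted p = 0.764).

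1700001K23Rik fell from 1.52, 3.12 and 3.45 RPKM to 0.539, 0.363 and 0.472 (log2 fold change -1.69 ± 0.23, adjusted p = 0.00053). The first Luc library was the lowest of the controls but still above all Sfpq libraries. E130307A14Rik went from 1.17, 1.90 and 1.38 RPKM in Luc to 0.514, 0.191 and 0.323 in Sfpq libraries, with a log2 fold change of -1.23. Both 1700001K23Rik and E130307A14Rik entered through their Luc libraries, since their Sfpq means were under 0.5 RPKM. The same holds for A930015D03Rik, A330076H08Rik and A230072C01Rik, given below. B230209E15Rik measured 3.87, 4.0 and 6.75 RPKM in Luc and 1.98, 2.13 and 2.35 in Sfpq libraries, a change of -0.98. In B230209E15Rik the third Luc library was the high one, and without it the change was -0.74.

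Smaller falls spanned the whole range of levels. 2810025M15Rik, one of the 3 Rik RNAs above 50 RPKM, went from 67.0, 68.7 and 82.7 RPKM to 48.1, 45.7 and 45.9, a log2 fold change of -0.63 ± 0.11 (adjusted p = 0.00164). Its Sfpq libraries lay close together below all the controls. 9330188P03Rik changed by -0.82, 4930520O04Rik by -0.83, A930015D03Rik by -0.84 and 1700047E10Rik by -0.61 log2 units, all 4 with the groups apart.

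A pair of calls among the falls depended on single libraries. A230072C01Rik, at 0.732, 0.581 and 0.683 RPKM in Luc and 0.351, 0.353 and 0.313 in Sfpq libraries, had a log2 fold change of -0.47 (adjusted p = 0.014, limma). That p was 0.058 without Luc replicate 1 and 0.0572 without Sfpq replicate 3. A330076H08Rik measured 0.832, 0.632 and 1.61 RPKM in Luc and 0.466, 0.559 and 0.355 in Sfpq libraries, a change of -0.62 (adjusted p = 0.0474). Its Luc replicate 3 was the highest library, and without it the change was -0.36 (adjusted p = 0.0708). Taking out Luc replicate 1 (-0.69) also ended the call, as did each Sfpq library in turn (-0.63 without the first, -0.69 without the second, -0.54 without the third).

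On the same scale the largest rise among the Rik members was that of 2810410L24Rik. It went from 0.460, 0.659 and 0.266 RPKM in Luc to 2.12, 2.18 and 1.98 RPKM in Sfpq libraries. The groups were well separated, with a log2 fold change of 1.45 ± 0.16 (adjusted p = 0.000143, limma), which was 1.09 with a pseudocount of 1, below 2410006H16Rik (1.23) and 2700099C18Rik (1.22). It entered through its Sfpq libraries, since its Luc mean was under 0.5 RPKM, as did 8430429K09Rik and E130317F20Rik. 2410006H16Rik, the most abundant member, rose from 255, 308 and 308 RPKM to 554, 779 and 729. Its log2 fold change was 1.23 ± 0.14 (adjusted p = 0.000202). The gene table places the small nucleolar RNAs Snord49b, Snord49a and Snord65, guides of ribosomal RNA methylation, within this gene. The other members holding such genes were 2700038G22Rik (0.03) and 5730408K05Rik (-0.28), both not called, and Rab26os (0.50), called higher.

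2700099C18Rik, which RefSeq classes as a transcribed pseudogene, rose from 8.96, 6.4 and 8.76 RPKM to 22.5, 19.3 and 17.8, a log2 fold change of 1.26 ± 0.15. 8430429K09Rik went from 0.320, 0.151 and 0.444 RPKM to 1.10, 1.35 and 1.69, a change of 1.23. Both had all Sfpq libraries above all Luc libraries. 4930451G09Rik rose from 0.657, 0.730 and 0.606 RPKM to 2.25, 1.78 and 1.65, a change of 1.03. These 5 were the Rik members that rose by at least 1 log2 unit on the log2(RPKM + 0.5) scale.

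Below 1 log2 unit, 5033406O09Rik rose by 0.97, 4930578M01Rik by 0.92, E130317F20Rik by 0.86, 1700086O06Rik by 0.77 and 2610306M01Rik by 0.71, each with the groups apart. The mean RPKM of the first 3 of these rose 2.39-fold, 2.12-fold and 2.74-fold. 1600020E01Rik measured 3.47, 3.17 and 7.44 RPKM in Luc and 7.78, 7.77 and 9.28 in Sfpq libraries. Luc replicate 3 came close to the Sfpq libraries, the log2 fold change was 0.84 (adjusted p = 0.0272, limma), and the call was lost on taking out Luc replicate 1 (0.70) or 2 (0.64), or any Sfpq library (0.88 without the first or the second, 0.76 without the third). Without Luc replicate 3 the rise was 1.20 (adjusted p = 9.58e-06). A630066F11Rik, at 0.890, 0.492 and 0.827 RPKM in Luc and 2.47, 1.24 and 1.25 in Sfpq libraries, changed by 0.77 (adjusted p = 0.0223). Its first Sfpq library was the highest, and without it the change was 0.52 (adjusted p = 0.0599); without Luc replicate 2 it was 0.62 (adjusted p = 0.0612).

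**Figure D2:**
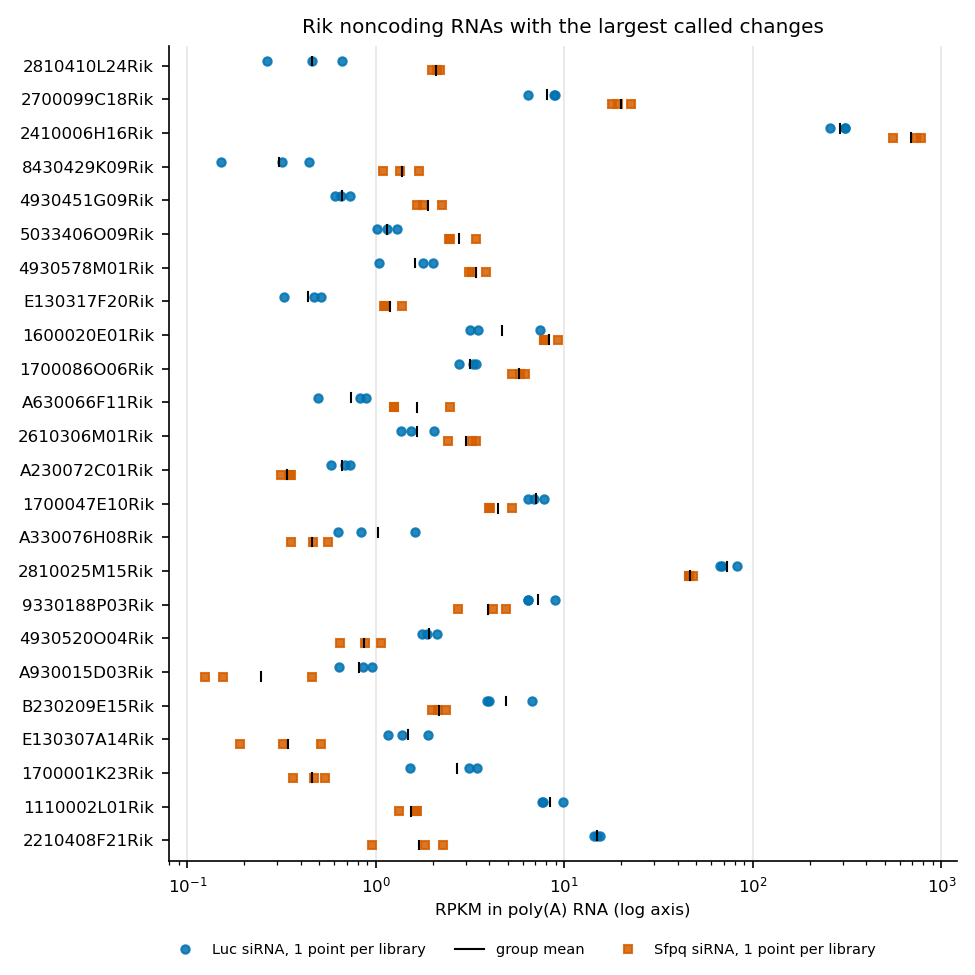
RPKM in each poly(A) library, on a log axis, of the 12 Rik RNAs with the largest called rises and the 12 with the largest called falls, ordered by log2 fold change. Blue circles are Luc and orange squares Sfpq libraries, and black bars are group means; 2410006H16Rik lies above 200 RPKM in every library, and for 1600020E01Rik the highest Luc library (7.44 RPKM) comes near the lowest Sfpq library (7.77 RPKM).

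The other abundant Rik RNAs had smaller changes. 6820431F20Rik, a transcribed pseudogene, measured 68.0, 61.5 and 114 RPKM in Luc and 51.7, 60.1 and 63.3 in Sfpq libraries. Its groups overlapped and it did not pass (log2 fold change -0.42, adjusted p = 0.134, limma), although it did without Luc replicate 2 (-0.60, adjusted p = 0.0412). Without Luc replicate 3, its highest library, the change was -0.15 (adjusted p = 0.213). 2610005L07Rik, another transcribed pseudogene, measured 35.2, 35.1 and 43.3 RPKM in Luc and 34.4, 37.9 and 40.7 in Sfpq libraries, with a log2 fold change of -0.00 ± 0.12. 5430416N02Rik rose from 13.6, 17.2 and 15.2 RPKM to 20.2, 25.1 and 26.7 (log2 fold change 0.63, adjusted p = 0.00556). In all, 39 Rik RNAs and 1 os RNA had a change smaller than 0.2 log2 units either way.

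Several rows of the same gene moved alike. Of the 25 members with more than 1 row, 20 had more than 1 row at 0.5 RPKM or above, and in all 20 these rows had changes of the same sign. Such rows share exons, so they are not separate measurements.

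Among the os RNAs the largest change was the fall of Mkln1os, named after Mkln1, the gene for muskelin, a subunit of a ubiquitin ligase complex. It measured 1.33, 0.941 and 1.88 RPKM in Luc and 0.136, 0.0734 and 0.0796 RPKM in Sfpq libraries. The groups did not overlap and the log2 fold change was -1.63 ± 0.18 (adjusted p = 0.00015, limma), with the Sfpq mean at 6.97% of the Luc mean, a lower share than that of 2210408F21Rik. It entered through its Luc libraries, since its Sfpq mean was under 0.5 RPKM. Mkln1 itself measured 21.1, 17.4 and 22.4 RPKM in Luc and 26.1, 24.0 and 25.5 in Sfpq libraries, and did not pass (log2 fold change 0.31, adjusted p = 0.0587). 2210408F21Rik, the Rik RNA that fell most, and Mkln1os are adjacent in the gene table with no coding gene between them. Each overlaps another gene there, though not a coding one. Reads may therefore be shared, and their falls may not be separate measurements.

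Map2k3os, named after a MAP kinase kinase gene, fell from 3.00, 2.72 and 2.89 RPKM to 1.35, 1.93 and 1.48, with a log2 fold change of -0.70 ± 0.13 (adjusted p = 0.00305, limma). Cep83os, named after a centriole protein gene, measured 2.23, 2.11 and 2.90 RPKM in Luc and 1.75, 1.87 and 1.51 in Sfpq libraries. The groups were apart but the call was marginal (log2 fold change -0.39, adjusted p = 0.0495). It was lost on taking out Luc replicate 1 (-0.44) or 3 (-0.28), or any Sfpq library (-0.41 without the first, -0.44 without the second, -0.33 without the third). It was also lost with the replicate block (adjusted p = 0.0613), a pseudocount of 0.1 (0.0516), a minimum of 2 RPKM (0.0514) and no minimum (0.155).

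The largest rise among the os members was that of Lhx1os, named after the gene of a LIM homeobox transcription factor. It went from 1.26, 0.698 and 1.30 RPKM in Luc to 3.37, 3.23 and 2.58 in Sfpq libraries. All Sfpq libraries were above all Luc libraries, with a log2 fold change of 1.19 ± 0.18 (adjusted p = 0.000839, limma). Rab10os, named after a small GTPase gene of vesicle traffic, rose from 2.31, 2.27 and 2.81 RPKM to 3.92, 5.58 and 4.47, a change of 0.79 ± 0.15 (adjusted p = 0.00252).

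The other 3 os rises were smaller and each depended on single libraries. Lppos rose from 0.532, 0.595 and 0.379 RPKM to 1.08, 0.788 and 0.943 (log2 fold change 0.52, adjusted p = 0.0168, limma); the call ended without Sfpq replicate 1 (0.45) or Sfpq replicate 3 (0.51). Rab26os, the most abundant os RNA, rose from 6.58, 7.13 and 5.60 RPKM to 7.35, 10.1 and 10.7 (0.50, adjusted p = 0.0293), and its call was lost when Luc replicate 1 (0.52), or replicate 2 (0.44) or 3 (0.40) of Sfpq, was taken out. Sp3os rose from 2.52, 2.69 and 2.74 RPKM to 4.24, 3.39 and 3.68 (0.44, adjusted p = 0.0171), and its call was lost when Luc replicate 1 (0.41), or replicate 1 (0.36) or 3 (0.45) of Sfpq, was taken out. All 3 had the groups apart.

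The remaining 6 os RNAs did not pass. Fam120aos measured 1.02, 1.34 and 1.91 RPKM in Luc and 2.21, 2.11 and 1.94 in Sfpq libraries (log2 fold change 0.45, adjusted p = 0.0589, limma). Its groups were apart by a small gap, and without Luc replicate 3 it was called (0.63, adjusted p = 0.00226). Kank4os measured 1.19, 1.29 and 1.97 RPKM against 1.07, 1.05 and 0.932, also apart, with a change of -0.37 (adjusted p = 0.0961) that was -0.20 without Luc replicate 3. For Vax2os (0.426, 0.630 and 0.193 RPKM against 0.678, 0.403 and 0.999) the groups overlapped. They also overlapped for Med9os (0.859, 0.891 and 0.429 against 1.37, 0.736 and 0.943) and Rbm3os (0.344, 0.302 and 0.540 against 0.861, 0.421 and 0.548). Hk1os overlapped too, at 0.816, 1.69 and 0.814 RPKM in Luc and 1.65, 0.890 and 1.24 in Sfpq libraries.

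**Figure D3:**
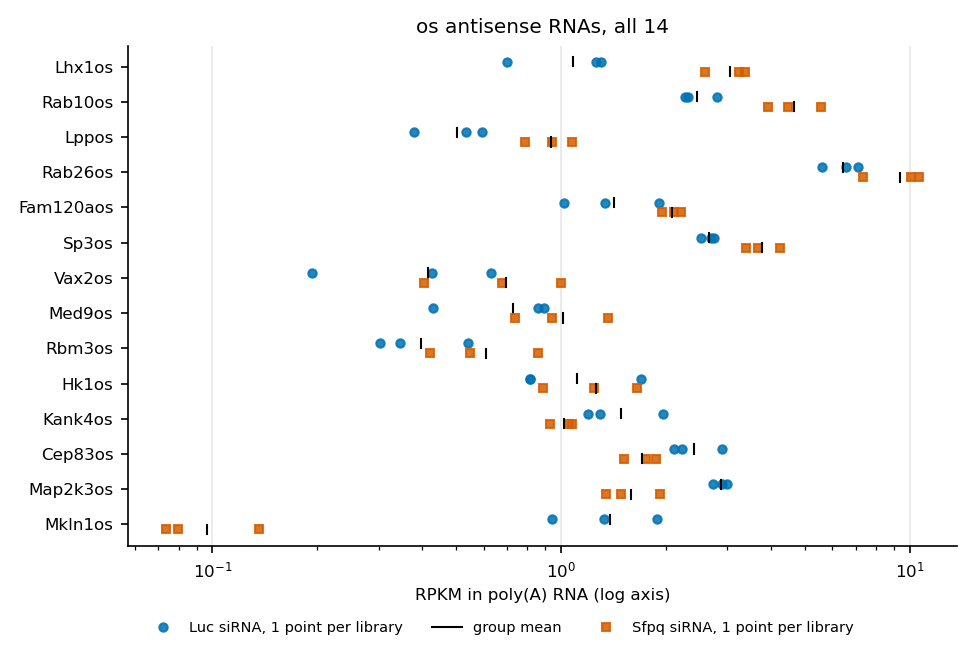
RPKM of all 14 os RNAs in each poly(A) library, on a log axis, ordered by log2 fold change. Blue circles are Luc and orange squares Sfpq libraries, and black bars are group means; the Mkln1os libraries lie furthest apart, at 0.941 RPKM or more in Luc and 0.136 RPKM or less in Sfpq.

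The genes on the opposite strand mostly did not pass the test. Of the 13 partner genes at 0.5 RPKM or more, 12 were not called and 1, Rbm3, a cold-inducible RNA-binding protein gene, fell. Among all 11727 genes tested, 7037 were not called, so an uncalled partner is a common outcome. All 7 called os RNAs with a tested partner had a partner that was not called, and the log2 fold change of each of the 13 partners lay within 0.5 of 0. Lhx1 measured 2.93, 2.49 and 1.65 RPKM in Luc and 3.35, 2.72 and 2.47 in Sfpq libraries, with overlapping groups and a log2 fold change of 0.25 ± 0.18. Rab10 had a change of 0.03 and Map2k3 of 0.07. Rbm3 measured 200, 230 and 244 RPKM in Luc and 175, 171 and 174 in Sfpq libraries, a change of -0.37 ± 0.10 (adjusted p = 0.0185, limma). Vax2 was just short of the threshold (-0.41, adjusted p = 0.051), and Rab26, at group means of 0.345 and 0.233 RPKM, was too low to be tested.

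The ratio of os RNA to partner was also taken within each library. On the log2(RPKM + 0.5) scale the ratio was higher in all Sfpq than in all Luc libraries for 7 pairs, lower for 4 and overlapping for 2, Hk1os and Med9os. No share was computed for ratios between other genes, so these counts have no background. For the level of single genes, 28.2% of all genes were separated upwards and 24.7% downwards. The 7 include Rbm3os and Vax2os, which lie near the minimum level and whose own groups overlapped. Mkln1os to Mkln1 was -3.57, -3.63 and -3.26 in Luc and -5.39, -5.42 and -5.49 in Sfpq libraries, and Lhx1os to Lhx1 was -0.96, -1.32 and -0.26 against 0.01, 0.22 and 0.05. The exact two-sided permutation test gave p = 0.1 for each of the separated pairs, which is the smallest that 3 against 3 libraries allow, so none could pass. Whether reads were counted by strand is not given in the sources used here, and where an os RNA overlaps its partner the reads of the 2 may be shared. Of the 14 os genes, 7 overlap a coding gene and 7 of the 13 with a known start lie head to head with a coding gene within 1000 bases. For Rab26os that coding gene is Traf7 and not Rab26.

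**Figure D4:**
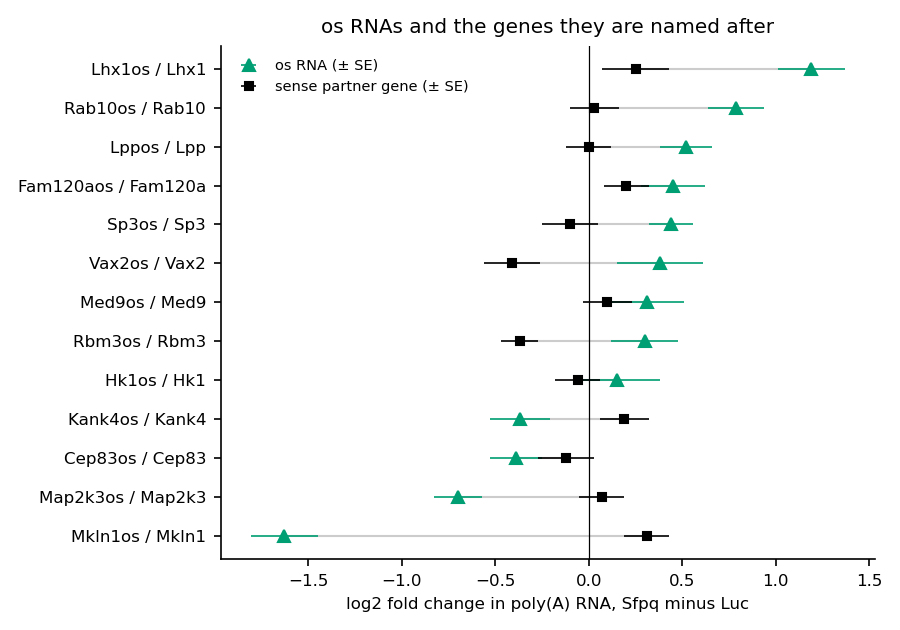
Log2 fold changes (Sfpq minus Luc, poly(A) RNA, ± SE) of 13 os RNAs (green triangles) and of the genes they are named after (black squares). The partners lie between -0.41 and 0.31, while the os RNAs run from -1.63 to 1.19.

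Rik RNAs were compared with the nearest or overlapping protein-coding gene in the same way. Of 90 Rik RNAs with a tested neighbour, 28 rose, and for these the neighbour rose in 5, fell in 5 and did not pass in 18. For the 10 that fell, the neighbour rose in 2, fell in 2 and did not pass in 6. Among the 52 that were not called, 10 neighbours rose and 12 fell. These counts stand beside 21.4% higher and 18.6% lower among all genes tested. Neighbour and RNA thus went the same way as often as opposite ways. Of the 25 Rik RNAs that start head to head with a coding gene within 1000 bases, 8 rose and 2 fell. Of the other 66 with a known start 19 rose and 7 fell, beside the same shares of all genes.

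The pairs in which both were called are named here after their values were seen. Opposite changes were those of 2610306M01Rik (0.71) and Aak1 (-0.60), a kinase of clathrin-coated vesicles, of 2700046G09Rik (0.66) and the sphingomyelin synthase gene Sgms1 (-0.75), and of 6530402F18Rik (0.41) and the axon guidance gene Ntng2 (-1.26). A630066F11Rik (0.77) lies with Pcmt1 (-0.54), a protein repair enzyme gene, and 1500011B03Rik (0.57) with Ankrd13a (-0.87). Conversely, 1700052K11Rik (-0.46) lies with the kinase gene Tlk2 (0.58), and E130307A14Rik (-1.23) with Traf3ip2 (0.42), a signalling adaptor gene.

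Shared directions were found for 4930451G09Rik (1.03) and Anks3 (0.75), and for 4930412O13Rik (0.64) and Gata3 (0.51), a transcription factor of the sympathetic lineage. They were also found for 1700086O06Rik (0.77) and Dele1 (0.42), A330069E16Rik (0.66) and the DNA damage recognition gene Ddb2 (0.51), and 4933412E12Rik (0.47) and Rab3ip (0.37). On the falling side stood 4930520O04Rik (-0.83) with Crtap (-0.54), a collagen modification gene, and 1700001K23Rik (-1.69) with the adducin gene Add3 (-0.40). Among these, 4930451G09Rik, 4930412O13Rik, 1700086O06Rik and 4930520O04Rik overlap their neighbour in the gene annotation, as do all the opposite pairs but that of 1500011B03Rik, so reads may be shared.

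A group of 3 Rik RNAs lies in a row near Ndn, an imprinted gene of the Prader-Willi region, with no coding gene between them. B230209E15Rik and A330076H08Rik fell, as given above, and A230057D06Rik between them, which holds microRNA genes of the Mir344 family, was not called. A230057D06Rik measured 1.63, 1.12 and 4.04 RPKM in Luc and 0.919, 1.59 and 1.53 in Sfpq libraries (log2 fold change -0.46 ± 0.33). Luc replicate 3 was the highest library for all 3 RNAs. Of the other Rik RNAs that hold microRNA genes, 2900076A07Rik (Mir1839) rose from 4.01, 4.04 and 3.64 RPKM to 5.85, 6.84 and 6.92 (0.68, adjusted p = 0.00158, limma). C430049B03Rik (Mir322, Mir351 and Mir503) had a change of -0.02. The microRNAs themselves are not measured in these files.

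In RNA depleted of ribosomal RNA, with 1 library per group and so no test, most called members had a ratio of the same sign. Of the 116 Rik RNAs, 81 averaged 0.5 RPKM or more across that pair of libraries, and 2 were at least 2-fold higher and 2 at least 2-fold lower, where 1.65% of 11386 genes were higher and 5.19% lower. None of 8 os RNAs passed 2-fold. Of the Rik RNAs called higher in poly(A) RNA, 20 of 22 with a value were above 0 and of those called lower 9 of 9 were below, and for os RNAs 3 of 4 and 2 of 2. Among all genes these shares were 98.5% and 99.8%.

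The largest ratio downwards was that of 1110002L01Rik and the largest upwards that of 0610009L18Rik (0.709 and 2.09 RPKM, log2 ratio 1.10), which was not called in poly(A) RNA (0.30, adjusted p = 0.231, limma) and is named after its values were seen. Of the RNAs that averaged 2 RPKM or more, 1110002L01Rik measured 5.41 RPKM in Luc and 0.807 in Sfpq (log2 ratio -2.18), B230209E15Rik 4.52 and 1.86 (-1.09), and 2810025M15Rik 42.8 and 25.7 (-0.73). Higher in Sfpq were 2700099C18Rik, with 3.28 and 7.32 RPKM (1.05 log2 units), 1600020E01Rik with 2.66 and 5.29 (0.87), and 2610306M01Rik with 1.44 and 2.58 (0.67). 2810001G20Rik (0.88) and 2810429I04Rik (-0.70) also had large ratios, and neither was called in poly(A) RNA (0.34, adjusted p = 0.243, and -0.22, adjusted p = 0.532, limma). Cep83os (-0.55) and 2900076A07Rik (0.66) completed the 5 largest ratios each way at 2 RPKM or more.

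**Figure D5:**
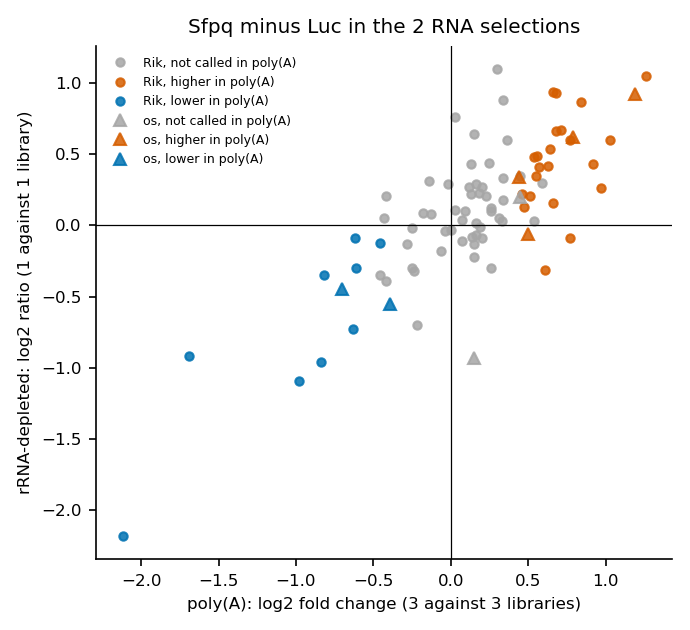
Change of 89 RNAs in the 2 RNA selections. The x axis is the log2 fold change in poly(A) RNA (3 against 3 libraries) and the y axis the log2 ratio in rRNA-depleted RNA (1 against 1 library); circles are Rik and triangles os RNAs, coloured by their call in poly(A) RNA. Blue points lie below 0 on both axes, down to 1110002L01Rik at -2.12 and -2.18, and all but 3 orange points lie above 0 on both.

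Levels differed between the selections in a way that limits this comparison. In the rRNA-depleted files 21 of the 130 members were listed at exactly 0 in both libraries, among them 2210408F21Rik, Mkln1os, 2810410L24Rik and 8430429K09Rik, and 2410006H16Rik was at 0.034 RPKM in Luc against a poly(A) mean of 290. Of the 21, 76.2% overlap another gene in the gene table, against 49.5% of the other 109 members. Gapdh, which all cells use, was at 15.3 RPKM in the rRNA-depleted against 1185 in the poly(A) Luc libraries, and Tug1, a long noncoding RNA, was listed at 0 against 4.66. Over all rows of at least 1 RPKM in poly(A) RNA, 54 of 15745 were at 0 in both rRNA-depleted libraries, and 77.8% of those were NR_ rows, which made up 4.29% of all. What sets these zeros was not tested, and a 0 there is not read as absence of the RNA.

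With that limit, 1 Rik RNA was at least 2-fold higher in rRNA-depleted than in poly(A) RNA of Luc cells, 12 of 87 were at least 2-fold lower, and 3 of 10 os RNAs were lower. Of 11611 genes 1.89% were higher and 17.8% lower. The higher one was 5730408K05Rik, which holds the small nucleolar RNA gene Snora57, at 11.2 RPKM against 2.47, 2.64 and 1.10 in the poly(A) libraries, a log2 difference of 2.25. Among RNAs that averaged 2 RPKM or more over the 4 Luc libraries, Rab26os (12.3 RPKM, difference 0.89), A930004D18Rik (0.50) and 4933404O12Rik (0.28) came next. The lowest at that level were 2410006H16Rik (-9.08), 1700047E10Rik (-2.66), 6820431F20Rik (-1.72) and 9330188P03Rik (-1.56).

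For well-studied long noncoding RNAs in the same poly(A) libraries, rises also outnumbered falls. Of 25 tested, 15 rose and 1, Neat1, fell (log2 fold change -0.82 ± 0.23, adjusted p = 0.0196, limma), with a median of 0.63, beside the 21.4% and 18.6% of all genes. The 9 that rose by at least 1 log2 unit included 6 genes named as hosts of small nucleolar RNAs (Snhg1, Snhg5, Snhg6, Snhg12, Snhg15 and Snhg16). The others were Chaserr (2.17), Epb41l4aos (2.01) and 1110038B12Rik (2.32), whose names do not tell whether they hold such RNAs. Epb41l4aos and 1110038B12Rik are the os and Rik genes that the rule left out of the members, so the label well-studied is loose for them. Malat1, an abundant nuclear RNA, did not pass (-0.33, adjusted p = 0.252). The list was drawn up with earlier results of these data known, so its direction is not independent evidence.

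Messenger RNAs of the factors that degrade nuclear RNA were called no more often than genes at large. Of 31 such genes, 5 rose, 5 fell and 21 did not pass, with a median of -0.01, beside the 21.4% and 18.6% of all genes. Mphosph6, a cofactor of the exosome, fell from 17.5 ± 0.72 to 9.84 ± 0.811 RPKM (SD, n = 3; log2 fold change -0.80, adjusted p = 0.000372, limma). Xrn1, a 5′ to 3′ exonuclease of the cytoplasm, rose from 2.04 ± 0.233 to 3.69 ± 0.181 RPKM (0.72), and Srrt, which links the cap-binding complex to RNA decay, rose by 0.58.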

How the data were processed

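The authors deposited a table of RPKM for each library, with a row for every RefSeq transcript. The submitters' processing notes name TopHat2 2.0.10 and the mouse build mm9. How RPKM was computed, with which strand setting and with what treatment of multiply mapped reads, is not given in the sources used here. Steps between low values put the poly(A) libraries' depth at 0.628 to 1.28 times that of Luc replicate 1. Precision therefore rests on the replicates. The second Sfpq library has another replicate number in its description than in its title, and the title was used.

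Of 30978 rows, 30507 were matched to a RefSeq gene table (GRCm38.p6, used for names and neighbours). Genes averaging 0.5 RPKM or more entered 1 limma fit (version 3.58.1, R 4.3.3, trended prior) on log2(RPKM + 0.5), with Benjamini-Hochberg adjustment over all genes. In simulated data with 200 of 11727 genes changed, 26% of changes of 0.5 log2 units, 78% of 1 and 98% of 2 were recovered. Far more genes were called in the data, 2505 higher and 2185 lower, so these shares need not hold there. Ratios were compared by exact permutation (scipy 1.17.1). Alternatives were other pseudocounts, minima and scalings, no trend, a replicate block, the mean of a gene's rows and leaving out each library.

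Named were all os genes and their partners, the 12 largest called and separated Rik changes each way, the 6 most abundant Rik genes, 4 genes at the threshold, the largest rRNA-depleted ratios and differences, and listed genes changed by 1 log2 unit (or the 3 largest). Other genes were named after their values were seen. The members and lists were chosen with earlier results of these data known. Mpp6 was dropped from the decay list because that symbol belongs to an unrelated mouse gene.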

Additional observations from a re-analysis of the deposited data

How the results depend on the processing

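Of the 34 named genes called in poly(A) RNA, Sfpq among them, 20 kept their call under every alternative setting run on them, and none changed sign. There were 15 settings, but the minimum of 2 RPKM left only 22 of the 42 named genes to be fitted. Leaving out 1 library at a time gave 20 to 35 Rik RNAs called higher and 11 to 16 lower, and 2 to 6 os RNAs higher and 2 to 3 lower. The shares of all genes moved too, from 13.4% to 30.7% higher and from 14.1% to 22.7% lower. With no minimum level 13 Rik RNAs were called higher and 9 lower, and 3 os RNAs higher and 2 lower, beside 7.82% and 7.62% of all genes. A minimum of 2 RPKM removes members. With it 16 Rik RNAs were higher and 6 lower, and 4 os RNAs higher and 1 lower, beside 21.1% and 18.7% of all genes. No filter ended 12 of the named calls.

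Changes near 0 changed sign. 2610005L07Rik was at 0.03 with quantile normalization and ran from -0.06 (without Sfpq replicate 3) to 0.10 (without Luc replicate 3), with 0.06 without Sfpq replicate 1. Hk1os ran from -0.00 (without Sfpq replicate 1) to 0.40. The ratio of Hk1os to Hk1 ran from -0.05 (without Sfpq replicate 1) to 0.44. That of Med9os to Med9 ran from -0.05 (without Sfpq replicate 1) to 0.40, with -0.04 without Luc replicate 3. The cause was not tested.

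In rRNA-depleted RNA, a pseudocount of 0.1 gave 6 Rik RNAs at least 2-fold higher and 4 lower, and 1 os RNA each way, while a pseudocount of 1 gave 0 Rik higher and 1 lower. Between the selections, a pseudocount of 0.1 gave 2 Rik RNAs higher and 21 lower, and median-ratio scaling gave 4 higher and 7 lower, with 1 os RNA higher and 0 lower.

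Whether the replicate numbers pair the libraries was not settled. Deviations from the group means correlated at 0.33, -0.04 and 0.16 between libraries of the same number, and each mean rests on only 3 libraries. Luc replicate 1 correlated best with the Sfpq library of its own number, and Luc replicates 2 and 3 did not. With a replicate block 34 Rik RNAs were higher and 14 lower, and 5 os RNAs higher and 2 lower, the lost call being that of Cep83os. The block gave 22.9% higher and 19.7% lower among all genes.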
